A study of Mus musculus with 24 samples.

Results

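A set of 9 genes of the innate RNA-sensing machinery, 9 of 55335 genes listed for mouse blood cells and 9 of 35001 gene names listed for mouse surface RNA, were followed here by symbol: the endosomal receptors Tlr3, Tlr7 and Tlr9, their trafficking chaperone Unc93b1, their adaptor Myd88, the cytosolic helicases Ddx58 (RIG-I, written Rigi in the surface tables), Ifih1 (MDA5) and Dhx58 (LGP2), and the helicases' mitochondrial adaptor Mavs. Surface RNA was profiled by AMOUR, in which primed RNA on the outside of fixed, bead-bound cells is copied in place by T7 RNA polymerase and sequenced. The surface libraries came from wild-type C57BL/6 mice: B cells, T cells (isolated with a CD8 kit) and NK cells from the spleen, and HSPCs (marrow depleted of lineage-positive cells) and monocytes from the bone marrow, with 3 libraries of each type. Blood of wild-type mice gave total RNA of mononuclear cells (PBMCs) in 3 groups of 3 libraries, whose treatment is given only as ct, WT or Y. Nothing in the labels explains those 3 names, and none says whether replicates came from separate mice. The paper describes the 3 surface libraries of a type as independent biological replicates. P-values measure the spread between these libraries, which for PBMCs may be technical.

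Endosomal Toll-like receptors read nucleic acid that reaches the endosome: Tlr3 binds double-stranded RNA, Tlr7 single-stranded RNA and Tlr9 unmethylated CpG DNA. Unc93b1 carries all 3 from the endoplasmic reticulum to endosomes, and Myd88 relays the signal of Tlr7 and Tlr9 but not that of Tlr3. In the cytosol Ddx58 and Ifih1 bind viral RNA and signal through Mavs to interferon genes, while Dhx58 has no signalling domain of its own and tunes the other two.

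The genes lie on 7 chromosomes (GRCm38, GENCODE M21 annotation): Unc93b1 at chr19:3935186-3949340, Tlr9 at chr9:106222598-106226883, Myd88 at chr9:119335934-119341411, Tlr7 at chrX:167304929-167330558, Tlr3 at chr8:45395665-45411080, Ddx58 at chr4:40203773-40239828, Ifih1 at chr2:62595798-62646255, Mavs at chr2:131234063-131248025 and Dhx58 at chr11:100694884-100704271. Several RNA-sensing genes are themselves induced by interferon, so the promoters were searched on both strands for the core letters of the interferon-stimulated response element, GAAA followed by any 2 bases and GAAA again. Of the 9 genes, 6 had a 300-base promoter in the RefSeq table (GRCm38.p6), and 3 of those 6 held the letters, against 3.44% of all 32851 promoters. Tlr7, Dhx58 and Unc93b1 had no promoter there and were not searched. The stretches with the match, in Ifih1, Ddx58 and Myd88, are shown. Each is read 5′ to 3′ on the gene's own strand (minus for all 3), with the match in capitals. Ifih1 is at chr2:62646206-62646233, Ddx58 at chr4:40239804-40239833 and Myd88 at chr9:119340039-119340068.
Ifih1: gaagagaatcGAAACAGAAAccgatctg
Ddx58: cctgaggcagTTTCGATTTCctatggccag
Myd88: gagcttctcgGAAAGCGAAAgaaggagggg
Counted with the RefSeq start as base 0, the match began at base 32 in Ifih1, at base 2 in Ddx58 (where the letters read on the other strand) and at base -40 in Myd88. The RefSeq start of Myd88 lies inside the gene as GENCODE draws it, so the Myd88 stretch, though before that start, is within the GENCODE gene. Mavs, Tlr3 and Tlr9 held no match in this window. A match is a description of the letters, not of a bound site.

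Surface values are TPM, which sum to 1000000 over all transcripts of a library. They were summed over the transcripts of a gene and carry no read counts, so the depth behind them is unknown. Protein-coding RNA took 17.0 to 18.2% of TPM in the monocyte libraries and 0.644 to 2.96% in the other 12. Each gene is therefore also given as pcTPM, which counts protein-coding transcripts alone and sets their sum to 1000000 in every library (the protein-coding scale). Monocyte libraries came from a different sequencing platform (DNB T7) than the rest (Illumina HiSeq), so cell type and platform cannot be told apart for them. Summed markers of the labelled type were highest in that type for B cells (190 to 303 TPM, at most 16.2 elsewhere), T cells (20.4 to 57.8, at most 5.96), NK cells (68.4 to 194, at most 30.5) and monocytes (2453 to 2958, at most 29.1). No defining marker was at 0 in all libraries of its own type, but Cd4, of the T cell list, was at 0 to 0.0275 TPM in the T cells of the CD8 kit and at 0.170 to 0.323 TPM in NK cells. HSPC markers summed to 9.96 to 15.6 TPM in HSPCs, 7.21 to 14.0 in NK cells and 24.0 to 31.0 in monocytes. That list therefore did not set HSPCs apart. Neutrophil markers summed to 1406 to 1502 TPM in monocytes, 24.4 to 34.0 in NK cells and 11.3 to 54.9 in HSPCs. In B and T cells they reached at most 0.371. Monocyte markers summed to 12.9 to 21.7 TPM in NK cells, 6.50 to 16.3 in T cells and 11.1 to 29.1 in HSPCs. Platelet markers summed to 85.65 to 121.8 TPM in monocytes and 18.5 to 34.4 in HSPCs. The part of these markers' cells in the sensor values was not tested.

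**Figure D1:**
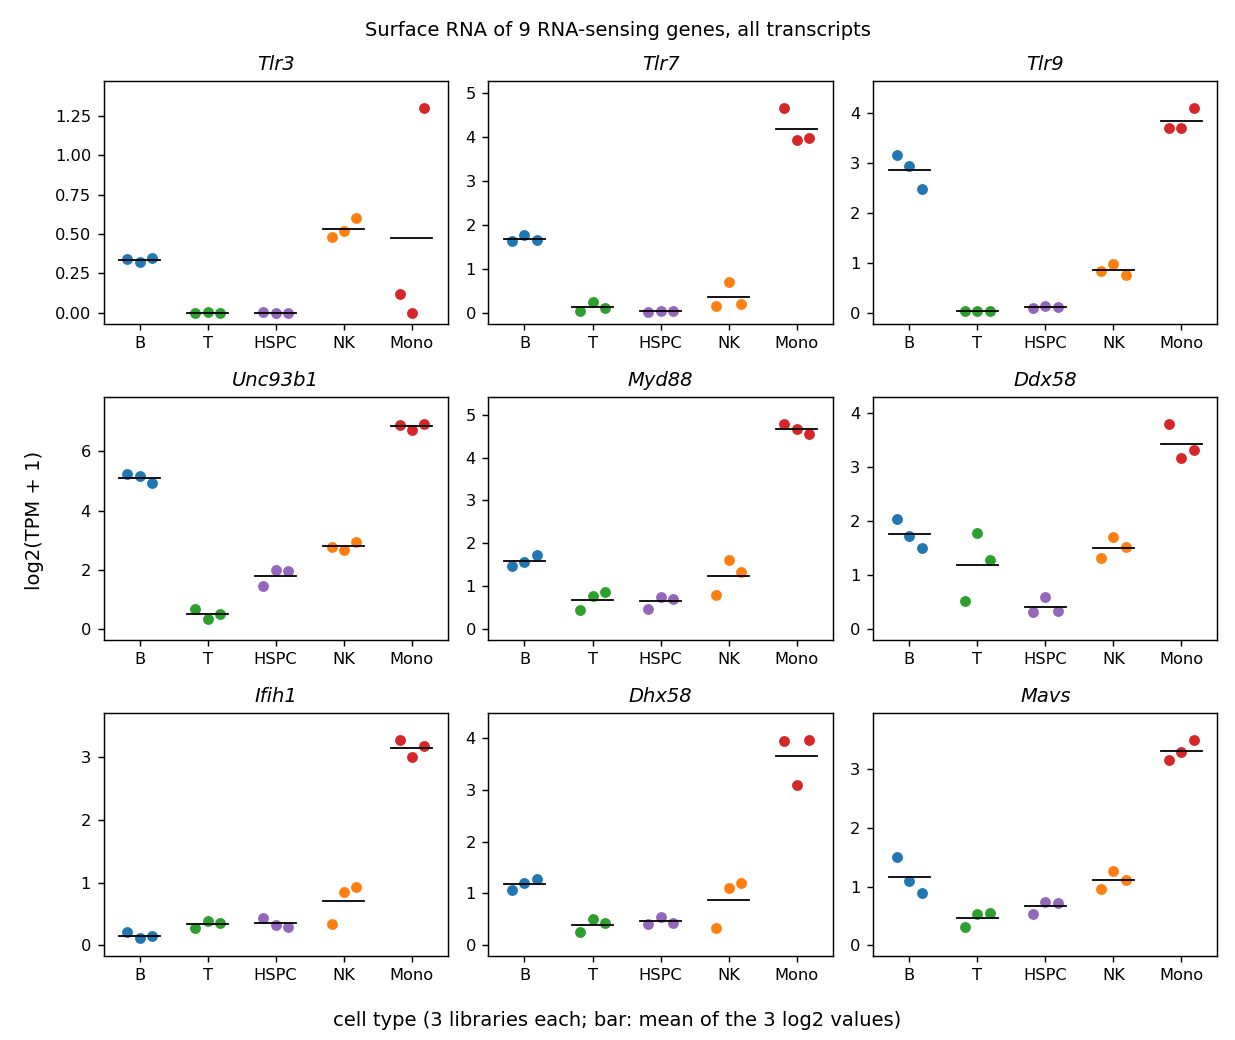
Surface RNA of the 9 genes on the TPM scale. Points are libraries, the vertical axis is log2(TPM + 1) and the bar is the mean of 3 log2 values. Monocytes stand above the other types for 8 of 9 genes, as they do for 83.5% of all genes tested. Unc93b1, Tlr9 and Tlr7 are next highest in B cells.

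Unc93b1 was the most abundant of the 9 genes on the surface of every type but T cells, where Ddx58 and Myd88 had higher means. In B cells its surface level was 36.9, 35.0 and 29.5 TPM, a mean of 33.8 ± 3.83 (SD, n = 3). T cells had 0.590, 0.254 and 0.426 TPM, and HSPCs 1.71, 2.98 and 2.86. NK cells had 5.82, 5.40 and 6.72 TPM, and monocytes 117, 105 and 120. Neighbouring types did not overlap in the order monocytes, B cells, NK cells, HSPCs, T cells. Among protein-coding genes of a library Unc93b1 stood at the 99.2 percentile in each B cell library, at 98.5 to 98.7 in monocytes and at 56.2 to 69.3 in T cells.

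In pcTPM the order of the top types turned. B cells had 1005, 980 and 946 of Unc93b1, monocytes 605, 559 and 620, NK cells 198, 152 and 135, HSPCs 118, 121 and 154, and T cells 16.2, 8.92 and 22.1. B cells lay above monocytes in every library on this scale and below them in every library on the TPM scale. NK cells and HSPCs overlapped, and T cells stayed lowest on both scales.

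Transcript usage of Unc93b1 differed too. One transcript of the 9 genes, the protein-coding Unc93b1-203, exceeded 50 TPM, the level the study took as a hit, and it did so in monocytes, at 90.8 to 99.7 TPM. Unc93b1-203 made 63.4 to 75.3% of the gene's TPM in B cells and 80.6 to 86.5% in monocytes. Transcripts annotated as retained intron, which keep an intron that splicing would remove, made 21.5, 34.6 and 35.9% of Unc93b1 TPM in B cells, 30.1 to 49.4% in NK cells and 37.7 to 82.3% in T cells. In HSPCs they made 12.1 to 21.9%. In monocytes they made 6.92 to 10.3%, less than in any library of the other types. Monocyte reads came from another platform and, by the paper's methods, were shorter, and the part of either in these shares was not tested. In T cells these shares divide a total under 1 TPM.

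**Figure D2:**
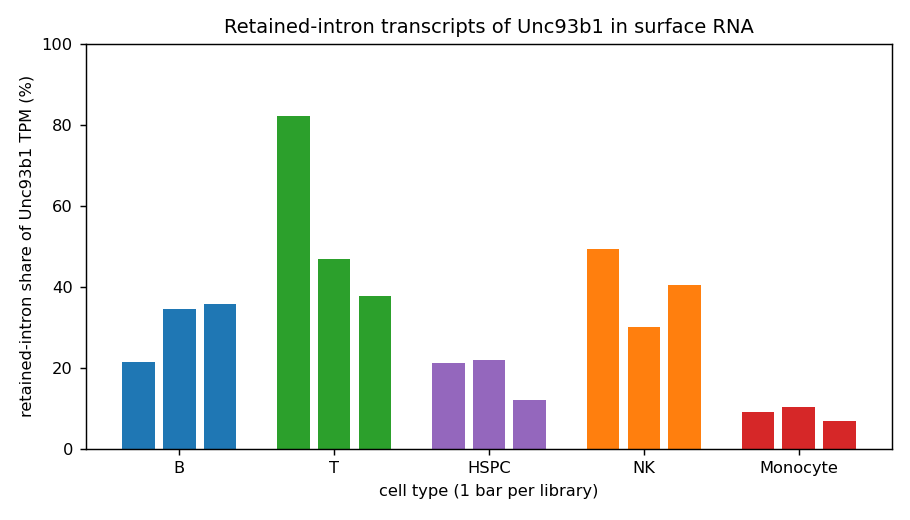
Share of Unc93b1 TPM from retained-intron transcripts, 1 bar per library, on an axis from 0 to 100%. Monocytes are lowest, at 6.92 to 10.3%, and the highest bar is a T cell library at 82.3%.

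Tlr9, the receptor for CpG DNA, is listed with a single transcript. Its surface level was 7.86, 6.61 and 4.59 TPM in B cells and 11.9, 11.9 and 16.0 in monocytes. NK cells had 0.787, 0.965 and 0.696 TPM, HSPCs 0.0640, 0.102 and 0.0903, and T cells 0.0331, 0.0227 and 0.0333. The 5 types did not overlap in that order of monocytes, B cells, NK cells, HSPCs and T cells. In pcTPM B cells led with 272, 283 and 229, followed by monocytes with 67.7 to 88.3, NK cells with 23.5 to 52.9, HSPCs with 5.30 to 5.61 and T cells with 1.49 to 5.14, again without overlap. B cell markers summed to 10.1 to 16.2 TPM in the NK libraries, at most 1.28 in T cells and at most 0.677 in HSPCs, and their part in the NK level of Tlr9 and Unc93b1 was not tested.

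Tlr7, the receptor for single-stranded RNA, was at 2.11, 2.42 and 2.13 TPM in B cells and at 24.0, 14.2 and 14.7 in monocytes. In T cells it was at 0.0234 to 0.186 TPM, in HSPCs at 0.0181 to 0.0336 and in NK cells at 0.111 to 0.619. These 3 types overlapped in a chain, NK cells with T cells and T cells with HSPCs, and all lay below B cells. On the protein-coding scale B cells (63.1 to 107) and monocytes (64.6 to 105) covered nearly the same range, with NK cells at 4.63 to 12.9, T cells at 3.63 to 12.2 and HSPCs at 1.59 to 2.06.

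Tlr3, the receptor for double-stranded RNA, stayed low. NK cells had 0.396, 0.433 and 0.519 TPM and B cells 0.270, 0.252 and 0.272, without overlap. It was listed at 0 in 2 of 3 T cell libraries and in 2 of 3 HSPC libraries. Monocytes had 0.0865, 0 and 1.46 TPM, where the 0 is the sum over transcripts found in all 5 tables: a further protein-coding Tlr3 transcript, held by the monocyte table alone, was at 0.147 TPM in that library. In pcTPM NK cells had 17.4 to 18.5 and B cells 9.36 to 13.6. NK cells were above every B cell, T cell and HSPC library on both scales, with no TPM value of these types above 0.519. Values this low carry no counting error, and the share of all genes that separate this way is not given here.

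Myd88, the adaptor, was at 26.7, 24.5 and 22.4 TPM in monocytes and at 1.77, 1.97 and 2.30 in B cells. NK cells had 0.734 to 2.03 TPM, T cells 0.351 to 0.815 and HSPCs 0.384 to 0.690, each overlapping its neighbour. In pcTPM monocytes (124 to 152) still lay above every other library, as they did for 19.1% of all genes, B cells had 60.7 to 112 and HSPCs had the lowest range, 30.9 to 37.0.

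Among the helicases Ddx58 was the most evenly spread over lymphocytes. B cells had 3.07, 2.30 and 1.84 TPM, T cells 0.425, 2.43 and 1.41 and NK cells 1.47, 2.25 and 1.84, which all overlapped. HSPCs had 0.245 to 0.503 TPM and monocytes 7.95 to 12.9. In pcTPM monocytes had 13.3 to 25.2, below every B cell (40.2 to 52.3), T cell (33.6 to 49.4) and NK library (29.2 to 33.6). HSPCs were lowest at 4.39 to 7.37. This scale also leaves out Ddx58 transcripts not annotated as protein-coding. The protein-coding Rigi-201 made 27.95 to 50.96% of Ddx58 TPM in monocytes and 40.76 to 47.16% in B cells. It made 27.41 to 50.98% in T cells, 32.86 to 43.62% in NK cells and 20.49 to 31.86% in HSPCs. The part of these shares in the lower rank of monocytes in pcTPM was not tested.

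Ifih1 had a different order. It was lowest in B cells, at 0.154, 0.0763 and 0.101 TPM, and higher in T cells (0.205 to 0.312), HSPCs (0.222 to 0.357), NK cells (0.266 to 0.907) and monocytes (7.04 to 8.65). On the protein-coding scale the B cell libraries (0.947 to 4.70) were again below all others (among the 12 spleen and HSPC libraries, as in 7.51% of genes), NK cells had 13.4 to 16.3 and monocytes 24.1 to 32.9. B cells were thus at the top of the order for Tlr9 in pcTPM and at the bottom for Ifih1.

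Dhx58 was at 14.4, 7.52 and 14.6 TPM in monocytes, 1.11 to 1.42 in B cells and 0.260 to 1.29 in NK cells, the latter pair overlapping. HSPCs had 0.320 to 0.456 TPM and T cells 0.195 to 0.413. In pcTPM Dhx58 was at 44.67 to 66.61 in monocytes, 21.22 to 25.03 in B cells and 16.38 to 24.42 in NK cells. HSPCs had 7.396 to 12.37 pcTPM and T cells 6.477 to 11.35. Mavs, the adaptor that Ddx58 and Ifih1 share, was next. In pcTPM it ran from 31.9 to 58.8 pcTPM over all B cell, HSPC, NK and monocyte libraries, and T cells had 13.3, 29.6 and 27.3. On the TPM scale Mavs was at 7.93 to 10.4 in monocytes and at 0.245 to 1.86 elsewhere.

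**Figure D3:**
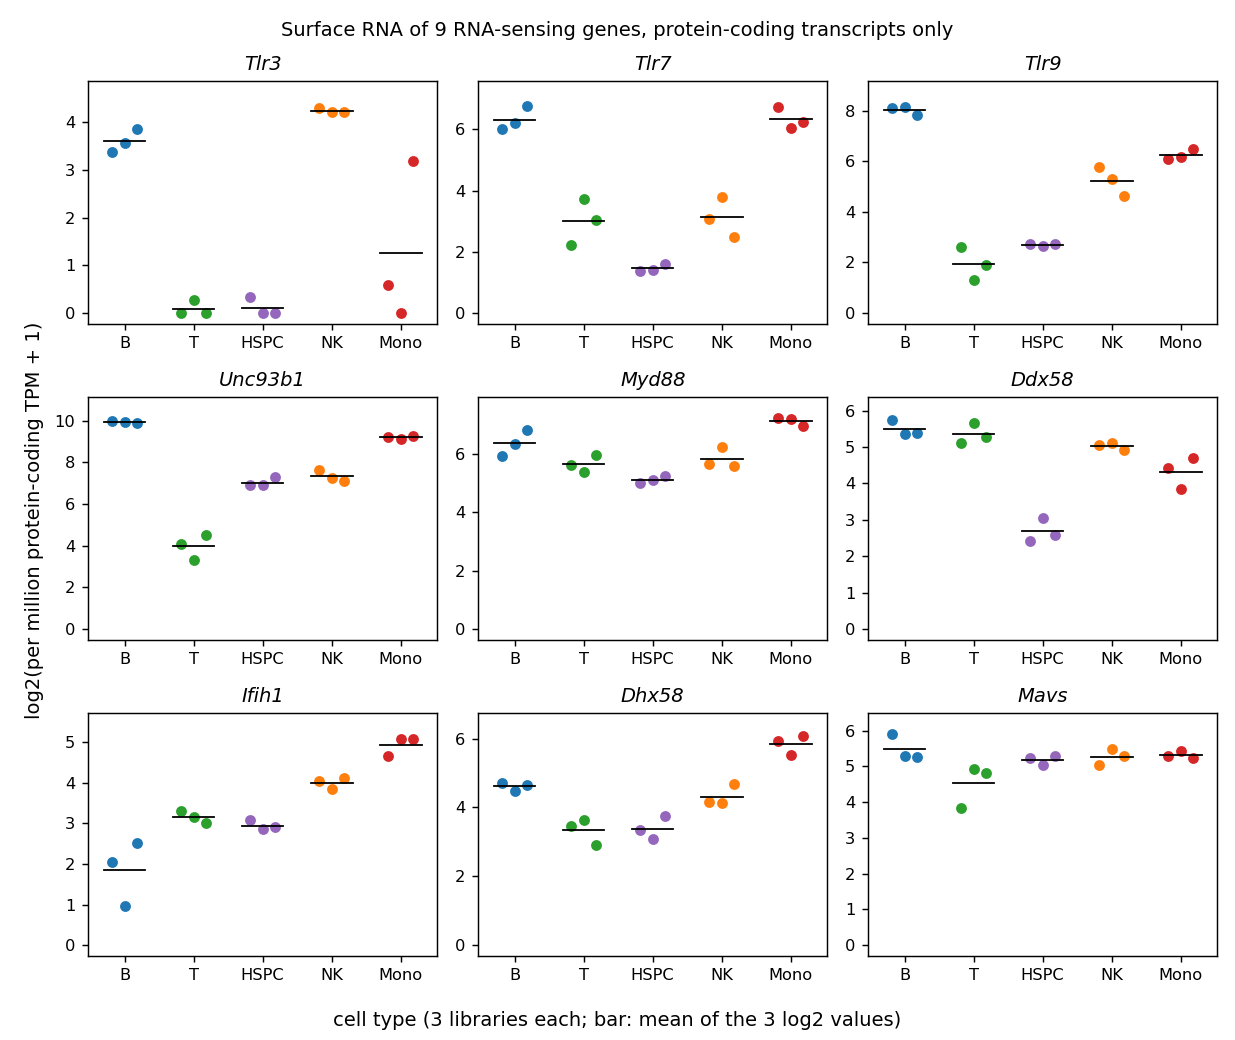
The same 9 genes in pcTPM, TPM rescaled to protein-coding transcripts, drawn as log2(value + 1), with 3 libraries per type and the mean of the log2 values as a bar. B cells lie above monocytes for Unc93b1 and Tlr9, level with them for Tlr7, and below every other type for Ifih1.

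Tests compared a type with the average of the remaining types in limma on log2(TPM + 1), with genes above 1 TPM in at least 3 libraries. The comparisons among B, T and NK cells and HSPCs used the 12 libraries of 1 platform. In those, 7 of the 9 genes passed the filter: Tlr3 and Ifih1 did not, and Tlr7 and Tlr9 passed through the B cell libraries alone. Their difference between B cells and the rest on this scale was fixed by the filter, and it is given as a value with no p. Myd88, Dhx58 and Mavs passed through B and NK cell libraries together and would not have passed without the B cells, so counts of called genes on the TPM scale are not read against the share of all genes. In pcTPM all 9 genes passed, and each would have passed without the B cell libraries, although Tlr3 passed through B and NK cells alone.

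In B cells Unc93b1 was higher on the log2 scale by 3.42 ± 0.22 (SE, adjusted p from limma 6.458e-09), with every B cell library above the 9 others, as in 14.9% of all genes. The log2 fold changes of Tlr9 and Tlr7 were 2.51 and 1.51. Ddx58 (0.72), Myd88 (0.73), Dhx58 (0.61) and Mavs (0.42) were smaller and overlapped with other libraries. Over the 20 alternatives Mavs lost its call in 11 (limma adjusted p up to 0.324) and Ddx58 in 3. Nothing is read from the count of calls here (7 of 7 tested), which the filter fixed in part. Of all 7766 genes 31.4% were called higher and 12% lower. Without B cell replicate 1, or without replicate 2, 5 genes passed the filter and 3 were called. On the protein-coding scale all 9 were tested and 7 were called higher, where 17% of genes were, with Tlr9 at 4.74 ± 0.28 (limma adjusted p = 8.659e-08), Unc93b1 at 3.82, Tlr7 at 3.80 ± 0.34 (adjusted p = 3.111e-06) and Tlr3 at 2.12. Nothing is read from the Tlr3 call, since Tlr3 passed the filter through B and NK cells alone, which fixed its direction in part. Ifih1 was called lower, at -1.53, as were 25.1% of genes, and Mavs was not called.

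T cells gave the opposite picture for Unc93b1. Of the 7 tested genes, 6 were called lower and none higher. The filter fixed this count in part, since the 6 entered through other types, and nothing is read from it. Of all genes 47.3% were called lower and 9.75% higher. Unc93b1 was lower by a log2 fold change of -2.73 ± 0.22 (limma adjusted p = 2.586e-07), with all T cell libraries below the 9 others, as in 17.9% of genes. The 6 also hold Tlr9 (-1.23) and Tlr7 (-0.56), which entered through B cells, and Mavs (-0.52), Myd88 (-0.47) and Dhx58 (-0.44), and Ddx58 had a log2 fold change of -0.04 and was not called. The count fell to 3 without T cell replicate 1 and to 2 without B cell replicate 2 or without B cell replicate 3. Scaled to protein-coding RNA, 5 of 9 were called lower, where 29.4% of genes were, led by Unc93b1 (-4.12) and Tlr9 (-3.37). Tlr3 was among the 5. It passed the filter through B and NK cells alone, which fixed its direction in part, so nothing is read from its call. Ddx58 was called higher (0.94, with 12.7% of genes higher).

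In HSPCs 5 of 7 tested genes were called lower: Tlr9 (-1.13), Ddx58 (-1.07), Unc93b1 (-1.01), Tlr7 (-0.68) and Myd88 (-0.53). Tlr9 and Tlr7 entered through B cells alone, and Myd88 through B and NK cells. The filter thus fixed this count in part, and nothing is read from it. Of all genes 30% were called lower and 8.11% higher. The count was 3 without B cell replicate 1 and 2 without B cell replicate 2 or without B cell replicate 3. Unc93b1 in HSPCs depended on the scale, with a log2 fold change of -0.05 in pcTPM and 0.45 once ribosomal RNA was left out of the total, and Myd88 changed sign as well, to 0.34, in the latter. After rescaling, 6 of 9 were called lower, where 18.3% of genes were lower and 27.4% higher. Tlr3 was again among them, with its direction fixed in part by the filter, so nothing is read from its call. Tlr7 (-2.69) and Ddx58 (-2.60) moved most.

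In NK cells none of the 7 tested genes was called by limma, where 20.7% of genes were called higher and 1.96% lower. At an unadjusted p below 0.05 there was 1, Mavs at 0.35 ± 0.16. The log2 fold changes ran from -0.27 for Tlr7 to 0.39 for Ddx58. Without NK replicate 1 there were 3 calls. On the protein-coding scale Tlr3 (2.97), Ifih1 (1.35) and Tlr9 (1.00) were called higher and none lower, where 16.2% of genes were higher and 3.53% lower. Tlr3 passed the filter through B and NK cells alone, which fixed its direction in part, so nothing is read from its call.

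Monocytes were set against the other 4 types over all 15 libraries, which mixes the platforms. Tlr3 did not pass the filter and Ifih1 passed it through the monocyte libraries alone. All 8 tested genes were called higher, and so were 89.2% of all 13020 genes (4.35% were lower). Every monocyte library was above every other for the 8, as for 83.5% of genes, so these counts are near the background. The log2 fold changes ran from 2.21 ± 0.22 for Ddx58 to 4.29 ± 0.16 for Unc93b1, with a median over all genes of 2.20. Rescaling to protein-coding transcripts moved that median to 0.27 and the shares of genes called to 35.7% higher and 16.7% lower. On that scale Tlr7 (2.86), Unc93b1 (2.15), Ifih1 (1.95), Dhx58 (1.93), Tlr9 (1.77) and Myd88 (1.39) were called higher, and Mavs (0.20), Ddx58 (-0.32) and Tlr3 (-0.76) were not called.

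The other 60 genes of these pathways, in 4 lists, were read the same way. In B cells, of the 42 that passed the filter, 22 were higher and 3 lower. Irak3, Lgmn and Slc15a3 are among the 22 and were above 1 TPM in B cells alone, so these TPM counts, and those of the other types below, are not read against the share of all genes. The list of endosomal Toll-like receptor processing holds proteases and cofactors that mature the receptors, beside other genes such as Pld4 and Cd180. It had 8 of 13 tested genes higher and none lower. In pcTPM 7 of 15 were higher and 3 lower, where 17% of all genes were higher and 25.1% lower. Irf5, a transcription factor downstream of Tlr7 and Tlr9, was at 12.2 ± 1.92 TPM in B cells, a log2 fold change of 2.92, ahead of the lysosomal protease Ctss (2.81) and the Toll-like receptor homologue Cd180 (2.78). Lower in B cells were Tnfaip3 (-2.07), which encodes the ubiquitin-editing inhibitor A20, the E3 ligase gene Rnf125 (-1.29) and Ikbke (-0.53), a kinase gene. Ikbke kept its sign in every alternative and lost its call in 12 of 20, and it passed the filter chiefly through T cells.

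In T cells 2 of 42 were higher, Ikbke (1.09) and Rnf125 (0.83). Ikbke was at 1.05 to 3.40 TPM in T cells and at most 1.23 in NK cells, 0.424 in B cells and 0.473 in HSPCs. The filter therefore fixed its direction in part. In pcTPM limma also called Ikbke (2.84) and Rnf125 (2.93) higher. There were 23 lower, 11 of them in the processing list, led by Syngr2 (-2.01), Pld4 (-1.80) and Irf5 (-1.79). HSPCs had none higher and 20 lower, led by Ctss (-1.97), Irf5 (-1.39) and Pld4 (-1.25), of which Pld4 was not called in pcTPM (-0.68, limma adjusted p = 0.134). NK cells had 7 higher and none lower, with Tnfaip3 at 2.19, Syngr2 at 1.30 and the interferon regulatory factor gene Irf7 at 0.94. In monocytes all 60 were tested and called higher, a count from which nothing is read, since genes such as Tlr8, Tlr13 and Oas2 were above 1 TPM in monocytes alone. The largest fold changes were those of the lysosomal protease gene Ctsb at 5.32, the endolysosomal exonuclease gene Pld4 at 5.29 and Tlr13, a receptor for bacterial ribosomal RNA, at 5.26, the last of them a value with no test, as the filter fixed its direction. Tlr13 had 39.4 TPM in monocytes, while no other library exceeded 0.214. On the protein-coding scale, with all 60 tested, B cells had 26 (43.3%) higher and 11 (18.3%) lower, against 17% and 25.1% of all genes. HSPCs had 7 (11.7%) higher and 22 (36.7%) lower, against 27.4% and 18.3%, and monocytes 42 (70%) higher and 6 (10%) lower, against 35.7% and 16.7%. T cells, with 10 (16.7%) higher and 17 (28.3%) lower, were near the shares of all genes, 12.7% and 29.4%, and so were NK cells, with 11 (18.3%) higher and 0 lower against 16.2% and 3.53%.

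In PBMC total RNA the question was whether the treatments labelled WT and Y changed the sensors. No member was called in any of the 3 comparisons. The libraries held 4686426 to 9055797 expected counts, of which 1 ribosomal RNA gene took 50.5 to 57.0%. By mean TPM over 9 libraries, which corrects for length, Unc93b1 led at 4.92 ± 0.70 (SD, n = 9), followed by Ddx58 at 2.32 ± 0.42, Myd88 at 1.33 ± 0.35 and Tlr9 at 0.822 ± 0.14. Unc93b1 (4.00 to 6.40 TPM) lay above every library of the other genes. Dhx58, Tlr7 and Ifih1 followed at 0.784, 0.750 and 0.720 TPM and overlapped with Tlr9, Mavs was at 0.462, and Tlr3, with 0 to 3 counts per library, was below all others at 0.0333. A count of 3 corresponds to 0.327 to 0.655 CPM in these libraries, so Tlr3 was at or under the limit that a count of 0 allows.

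**Figure D4:**
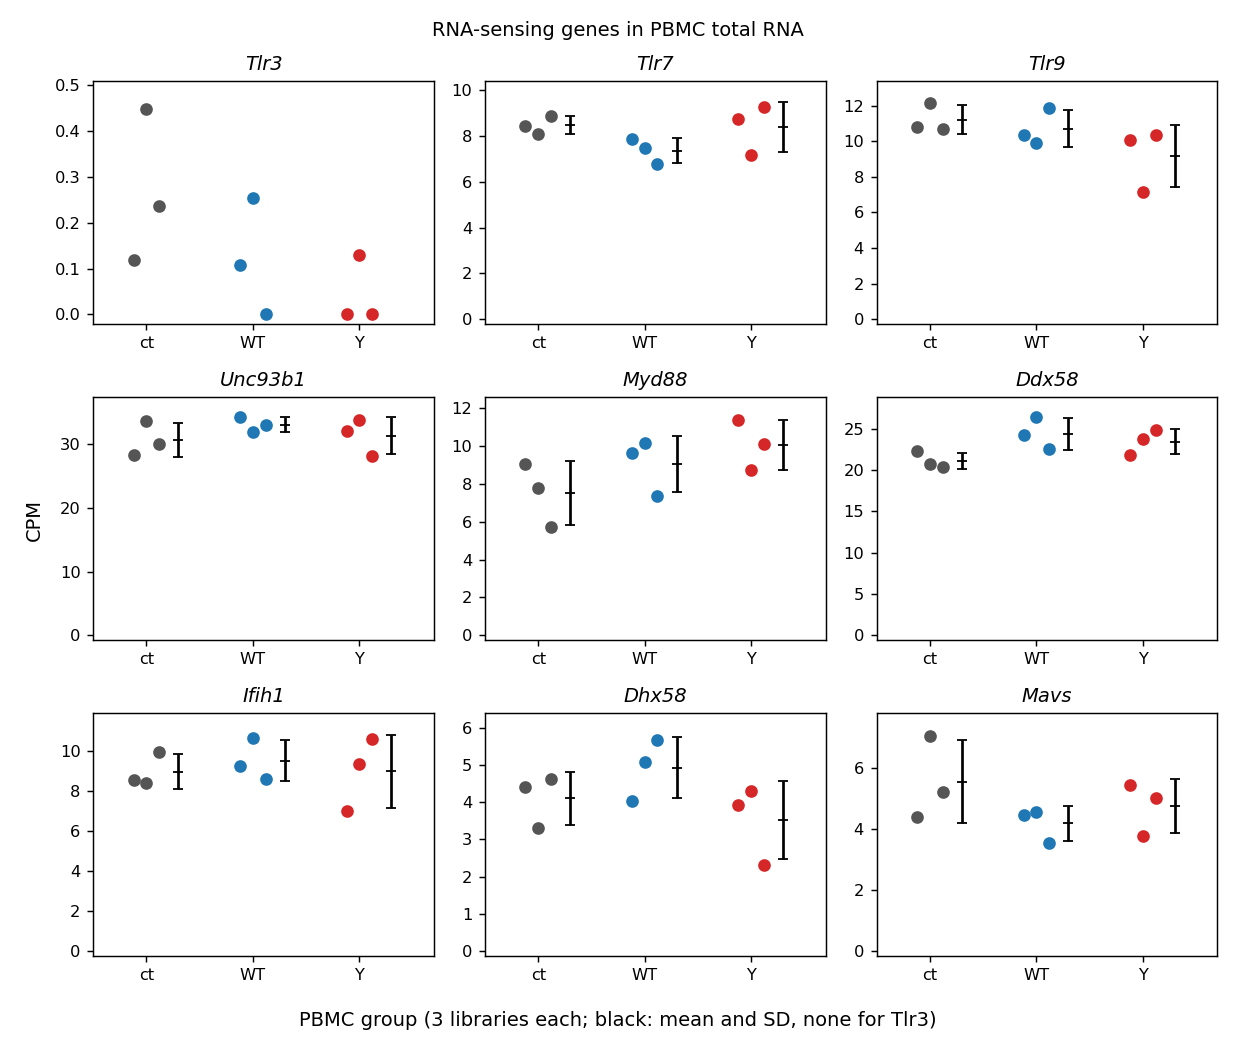
CPM, counts scaled to library size, of the 9 genes in the PBMC groups ct, WT and Y. Points are libraries, and the black mark and bar are the mean and SD of 3. The groups overlap for 8 of 9 genes when Y is set against ct, the exception being Tlr9.

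Unc93b1 was at 28.3, 33.6 and 30.0 CPM (counts scaled to 1000000 per TMM-adjusted library) in ct. WT libraries had 34.3, 31.9 and 32.9, and Y libraries 32.1, 33.7 and 28.1. The groups overlapped, and the edgeR log2 fold changes were 0.11 ± 0.10 (95% confidence interval -0.09 to 0.32) for WT against ct and 0.03 ± 0.10 (-0.17 to 0.24) for Y against ct. A change of the chaperone of more than 0.32 on the log2 scale lay outside both intervals.

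Ddx58 was at 22.2, 20.7 and 20.4 CPM in ct and 24.2, 26.4 and 22.5 in WT, every WT library being above every ct library. Its log2 fold change of 0.21 ± 0.10 had an unadjusted p of 0.0459 and an edgeR adjusted p of 0.415. In Y it was at 21.8, 23.7 and 24.8 CPM, overlapping with both. The partner Ifih1 did not separate: ct libraries had 8.39 to 9.96 CPM, WT libraries 8.63 to 10.6 and Y libraries 6.98 to 10.6.

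Tlr9 was at 10.8, 12.1 and 10.7 CPM in ct. WT libraries had 10.4, 9.88 and 11.9, and Y libraries 10.04, 7.16 and 10.3. Every Y library was below every ct library, by a log2 fold change of -0.30 ± 0.15 (edgeR adjusted p = 0.593). Tlr7 was at 8.44, 8.09 and 8.90 CPM in ct, while WT had 7.85, 7.47 and 6.79 and Y had 8.73, 7.16 and 9.29. The WT libraries were below the ct libraries, at -0.20 ± 0.14 (adjusted p = 0.661), and Y overlapped with both.

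Myd88 was at 9.04, 7.79 and 5.69 CPM in ct, while WT had 9.60, 10.1 and 7.35 and Y had 11.4, 8.72 and 10.1. The Y and ct groups overlapped by a single library of each, with a log2 fold change of 0.40 ± 0.18, an unadjusted p of 0.0381 and an edgeR adjusted p of 0.526. Dhx58 ranged over 3.30 to 4.63 CPM (ct), 4.04 to 5.66 (WT) and 2.32 to 4.30 (Y), and Y against WT gave the lowest value of any member, -0.49 ± 0.24 (adjusted p = 0.455). Mavs ranged over 4.40 to 7.04 CPM (ct), 3.54 to 4.56 (WT) and 3.77 to 5.46 (Y), at -0.38 ± 0.21 for WT against ct (adjusted p = 0.531).

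**Figure D5:**
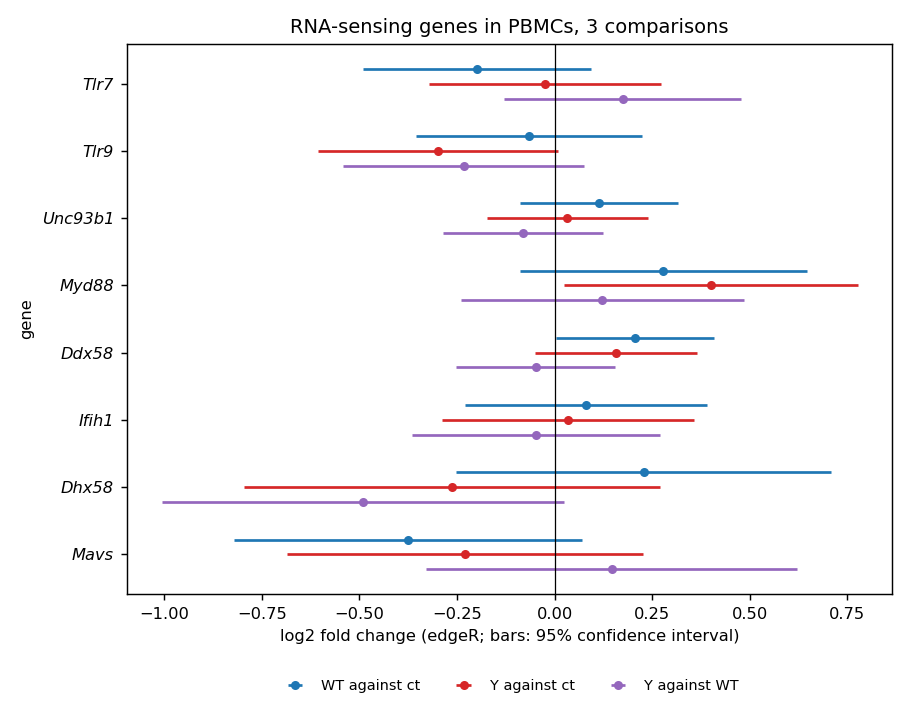
Log2 fold changes of the 8 tested genes in PBMCs from edgeR, with 95% confidence intervals, for WT against ct, Y against ct and Y against WT. WT against ct and Y against ct share the ct libraries. Intervals of Unc93b1 and Ddx58 are the narrowest, and those of Dhx58 and Mavs the widest.

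By comparison, 0 of 8 tested genes were called for WT against ct (2.36% of 11635 genes were), 0 for Y against ct (0.705%) and 0 for Y against WT (1.25%). At an unadjusted p below 0.05 edgeR gave 1 (Ddx58), 1 (Myd88) and 0, where 11.8%, 8.61% and 11.7% of all genes fell. DESeq2 called 0 in each and gave 0 at an unadjusted p below 0.05. The groups did not overlap for 2 genes in WT against ct (16.2% of all genes), 1 in Y against ct (13.2%) and 0 in Y against WT (17.3%). The median log2 fold change of the 8 was 0.10, 0.00 and -0.05, and of all genes 0.00 in each. Across genes and comparisons the confidence intervals lay between -1.01 and 0.78, so a change of more than 2-fold was outside nearly all of them, the lower end for Dhx58 in Y against WT being the exception. The first 2 comparisons share their ct libraries and are not independent.

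Of the 60 pathway genes, 58 were tested in PBMCs. One was called, where 2.36% of all genes were for WT against ct and 1.25% for Y against WT: Tnfaip3 was higher in WT than in ct, at 225 against 153 CPM, a log2 fold change of 0.55 ± 0.08 (edgeR adjusted p = 0.00121). It was lower in Y than in WT, at 144 against 225 CPM, by -0.64 ± 0.08 (adjusted p = 0.000415). In both it kept its call under all 14 alternatives, with adjusted p up to 0.00807. None of the 58 was called for Y against ct. An unadjusted p below 0.05 from edgeR went to 3 RLR regulators and 3 genes of the processing list for Y against ct, where 8.61% of all genes had one. For WT against ct it went to 1 other receptor, 2 signalling genes, 1 regulator and 4 of the processing list (11.8% of all genes), and for Y against WT to 1, 5, 4 and 5 of these lists (11.7%).

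Cell markers moved in these libraries. Summed neutrophil markers reached 208 to 220 CPM in Y, against 78.5 to 92.4 for ct and 74.4 to 80.5 for WT. Erythroid markers reached 6864 to 8234 CPM in ct, against 4269 to 4955 for WT and 4438 to 5010 for Y. Platelet markers reached 407 to 440 CPM in ct, with WT at 260 to 287 (5 of 5 called lower than in ct) and Y at 325 to 326. NK markers were 38.3 to 41.3 CPM in WT, 27.8 to 29.8 in ct and 29.7 to 32.7 in Y. Monocyte markers were 257 to 274 CPM in WT, with ct at 218 to 252 and Y at 214 to 231. In surface TPM monocytes lay above the other types for 8 sensors, as for 83.5% of all genes tested. Of the 5 monocyte markers 1 was called higher in WT than in ct and 2 lower in Y than in WT. T cell markers were 126 to 144 CPM in ct, 121 to 126 in WT and 132 to 133 in Y. B cell markers, which mark the type highest in surface Tlr9 in pcTPM, summed to 157 to 164 CPM (ct), 167 to 172 (WT) and 161 to 166 (Y), and markers of plasmacytoid dendritic cells, known for Tlr7 and Tlr9, summed to 10.1 to 14.6 CPM over all groups, with Cox6a2 at 0 in every Y library. The part of these shifts in the values of the sensors and of Tnfaip3 was not tested, and in bulk RNA fewer cells of a type and less RNA per cell cannot be told apart.

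The genes whose log2 CPM most resembled a sensor over the 9 PBMC libraries, which share depth and group, were taken for the 3 sensors of highest TPM. For Unc93b1 they were Ppt1, a lysosomal thioesterase gene (Pearson r = 0.929), Atad3a (0.927) and Pdk3 (0.925). For Ddx58 they were Iqcb1 (0.928), Gars (0.925) and Gm43313 (0.925), and for Myd88 Tigd2 (0.942), Sgms2 (0.926) and Gbp2b (0.909). Each is the top of 11634 genes compared over 9 points and is given as a description.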

How the data were processed

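The authors deposited surface RNA as TPM per transcript (the labels name cutadapt, STAR, featureCounts, kallisto and mm10; the transcript set is not given in the sources used here), in which low genes share a total dominated by ribosomal RNA. They deposited PBMC RNA as RSEM expected counts and TPM per gene (Trim Galore, STAR, featureCounts, RSEM, mm10 and hg38). TPM were summed by gene name over the 102001 transcripts present in all 5 tables. Expected counts were rounded, filtered with filterByExpr and tested with edgeR 4.0.16 (TMM, quasi-likelihood test, all 9 libraries). Surface values were tested with limma 3.58.1 with trend on log2(TPM + 1). Calls are at a Benjamini-Hochberg adjusted p below 0.05 over all genes tested. DESeq2 1.42.0 was an alternative. Functions were tested on simulated data. Strandedness is not given, so antisense reads cannot be told apart. Depth sets the precision of the counts, and intervals cover the spread between libraries. The members and lists were chosen with earlier results of these data known. Named genes are all 9 members and, from the 4 lists, up to 3 called genes per direction with the largest fold change. No PBMC library was a copy of another of its group by a chi-square test of the counts.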

Additional observations from a re-analysis of the deposited data

How the results depend on the processing

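In PBMCs the count of 0 called members held in all 3 comparisons under DESeq2, RLE size factors, no filter, the replicate block, a fit of the 2 groups compared and each left-out library. On the surface, leaving out 1 library at a time gave 7 to 8 calls in monocytes, 3 to 7 in B cells, 2 to 6 in T cells, 2 to 6 in HSPCs and 0 to 3 in NK cells; without a B cell library Tlr7 and Tlr9 no longer pass the filter, since they pass through B cells alone. With a filter of 50 TPM the counts were 1 in monocytes (Unc93b1) and 0 for each of B cells, T cells and HSPCs, because no other member reached it. In NK cells the count was 1 with a pseudocount of 10, 2 without a filter, 3 per protein-coding transcript, 1 without ribosomal RNA and 2 after quantile normalization; the cause was not tested. Reversed values were Ddx58 in monocytes, -0.32 on the protein-coding scale and -0.27 after quantile normalization, and, without ribosomal RNA, Myd88 (0.34) and Unc93b1 (0.45) in HSPCs. Same-numbered libraries correlated at -0.06 to 0.06 in PBMCs, where 3 of 9 were closest to their own number, and at -0.26 to 0.47 on the surface, where 9 of 15 were. T and NK cells correlated at 0.21 to 0.47 in all 3 numbers and B cells with T cells at -0.26 to -0.07, so the numbers did not pair all types, a hint from the data and not the design, and with the number as a block the counts of called members were 0, 0 and 0 in PBMCs and 8, 7, 6, 5 and 0 on the surface, as without it. Surface depth is unknown, and values under 1 TPM carry no counting error.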
